A study of Homo sapiens with 10 samples.

Results

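The genes described here encode the nuclear-made subunits of the mitochondrial respiratory chain and of ATP synthase, together with the assembly factors that share their names, in THP-1 macrophages exposed to plant polyphenols. They were taken by gene symbol, without use of any measured value: every row of the expression table with a single symbol beginning with NDUFA, NDUFB, NDUFC, NDUFS, NDUFV, SDHA to SDHD, UQCR, ATP5F, ATP5M, ATP5P or COX4 to COX8, pseudogene names left out. This gave 97 rows for 89 genes, out of 21214 rows with a symbol in a table of 33297, and where a gene had 2 rows (8 genes) the row with the higher mean was used. The 89 genes comprised 6 core and 28 accessory subunits of complex I, 3 subunits of complex II, 7 of complex III, 10 of complex IV, 6 complex IV isoforms of restricted tissue expression, 16 subunits of ATP synthase, 11 assembly and related factors, and 2 other transcripts (NDUFV1-DT and ATP5MGL).

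THP-1 is a human monocytic leukaemia cell line. The cells were turned into macrophages with PMA (phorbol 12-myristate 13-acetate) for 24 h and then kept for 24 h with punicalagin, the large ellagitannin of pomegranate (3 arrays, passages 6, 7 and 8), with the flavonol myricetin (2 arrays, passages 7 and 8), with the flavonol quercetin (2 arrays, passages 7 and 8), or with DMSO, the solvent (3 arrays, passages 6, 7 and 8). PMA and the same cell line were common to all 10 arrays. The punicalagin concentration was 10 µM, while the sources used here gave no concentration for myricetin or quercetin, so doses could not be matched between compounds. RNA was hybridised to 1-colour Affymetrix arrays, and the values are log2 intensities after RMA (robust multi-array average). Each condition is 1 cell line at successive passages, so the p-values below measure the spread between passages and arrays.

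The respiratory chain carries electrons from NADH and succinate to oxygen across the inner mitochondrial membrane. Complex I (NADH dehydrogenase) and complex II (succinate dehydrogenase) pass electrons to ubiquinone, complex III hands them to cytochrome c, complex IV (cytochrome c oxidase) reduces oxygen, and ATP synthase uses the proton gradient that complexes I, III and IV build. Macrophages are known for changing their balance between glycolysis and oxidative phosphorylation with their activation state. No mitochondrially encoded subunit had a row of its own symbol (0 of 26 names searched), so the data concern the nuclear part of the chain. SDHB, UQCRFS1 and NDUFA4 were among the genes not analysed here for want of a row of their own, and NDUFC2, NDUFS5, UQCRHL and ATP5F1E were on rows shared with other genes, which were not used.

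Promoter sequences of 76 of the 89 genes were in the RefSeq promoter table (GRCh38.p14, 250 bases before to 50 after the gene start). Nuclear respiratory genes are textbook targets of NRF1, of the ETS-type factor GABP (NRF2) and of YY1, and so 3 cores were searched on both strands. The NRF1-type core GCGCANGCG was in 25 of the 76 promoters (32.9%), against 8.05% of all 27305 promoters of the table. The ETS-type core CCGGAAG was in 22 (28.9%), against 10.7% of all promoters, and the YY1-type core AAGATGGC in 10 (13.2%), against 3.03%. At least 1 of the 3 was in 45 of the 76 (59.2%), against 19.2% of all promoters. The ETS-type core was in 5 of 9 complex IV promoters and the NRF1-type core in 1 of 9. No promoter of UQCRB was among the 76. Promoters of 3 genes are shown as examples from among those whose calls, described below, changed with the arrays used or their weights. They lie at chr11:67606686-67606985 (NDUFV1, plus strand), chr6:96897842-96898141 (NDUFAF4, minus strand) and chr2:97645812-97646111 (COX5B, plus strand), and capitals mark the ETS-type core, read on either strand.
NDUFV1: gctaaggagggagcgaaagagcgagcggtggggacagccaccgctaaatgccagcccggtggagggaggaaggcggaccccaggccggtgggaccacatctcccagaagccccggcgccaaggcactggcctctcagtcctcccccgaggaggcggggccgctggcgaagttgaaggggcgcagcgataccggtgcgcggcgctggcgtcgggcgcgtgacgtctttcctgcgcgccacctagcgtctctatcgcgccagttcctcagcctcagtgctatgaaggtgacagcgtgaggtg
NDUFAF4: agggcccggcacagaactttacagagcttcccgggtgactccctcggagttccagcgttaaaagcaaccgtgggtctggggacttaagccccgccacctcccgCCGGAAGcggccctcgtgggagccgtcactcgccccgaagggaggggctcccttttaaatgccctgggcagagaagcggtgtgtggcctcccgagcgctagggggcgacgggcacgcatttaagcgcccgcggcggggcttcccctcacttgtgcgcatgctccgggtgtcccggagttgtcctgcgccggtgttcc
COX5B: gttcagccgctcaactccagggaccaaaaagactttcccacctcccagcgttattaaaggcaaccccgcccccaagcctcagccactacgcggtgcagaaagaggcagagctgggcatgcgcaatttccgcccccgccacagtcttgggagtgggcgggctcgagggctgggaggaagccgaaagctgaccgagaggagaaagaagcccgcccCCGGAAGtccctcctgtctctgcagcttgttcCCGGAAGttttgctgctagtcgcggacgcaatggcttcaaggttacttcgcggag
COX5B held the ETS-type core at 2 places and NDUFAF4 at 1, while none of the 3 cores was found in this window of NDUFV1. Matches of different cores overlapped in 0 of the 76 promoters. A match is a description of the letters, and no binding was measured.

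Quercetin gave the only called gene among the comparisons with DMSO. UQCRB, a small subunit of complex III known as its ubiquinone-binding protein, had log2 values of 5.54 and 5.57 in quercetin-treated cells, against 4.96, 4.72 and 4.82 in DMSO cells. Both quercetin arrays lay above every other array of the series, since UQCRB was at 4.67, 4.98 and 4.89 with punicalagin and at 5.00 and 4.70 with myricetin. UQCRB was thus higher with quercetin than with DMSO by 0.72 on the log2 scale (95% interval 0.39 to 1.05; limma adjusted p = 0.0217), and the differences within passages were 0.82 (passage 7) and 0.74 (passage 8). With passage as a block the adjusted p was 0.0407. In such bulk RNA a difference in level per cell and a difference in the number of expressing cells cannot be told apart. The UQCRB row had a mean below the median row of the table, with 46.2% of rows below it, and the call was lost when all 33297 rows were tested (adjusted p = 0.0529) or when DMSO replicate 2 (adjusted p = 0.0673), DMSO replicate 3 (0.0563), quercetin replicate 1 (0.169) or quercetin replicate 2 (0.217) was left out, the difference staying between 0.66 and 0.73 without each of these 4 arrays. Leaving out a quercetin array leaves 1, which is then assumed to vary like the other groups.

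Among all 89 genes this was 1 call for quercetin, where 3.92% of all rows tested were called in either direction and 2.8% were called higher. Unadjusted p was under 0.05 for 2 genes higher and 8 lower with quercetin, against 7.95% and 6.86% of all rows, and the quercetin and DMSO arrays did not overlap for 5 genes higher and 17 lower, against 14.6% and 17.2% of all rows. These shares of the 89 genes were at or below those of the whole table, apart from the lower genes (8.99% by unadjusted p, 19.1% by non-overlap), which were a little above it. The median of the 89 fitted differences was -0.11, against -0.04 over all rows, with 23 genes above 0 and 66 below (9147 and 12067 of the 21214 rows tested). Without DMSO replicate 1 the median was -0.03, with 40 genes above 0 and 49 below.

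By complex, the quercetin differences were above 0 for 5 of 7 complex III subunits (median 0.18) and below 0 for all 10 complex IV subunits (median -0.21), 23 of 28 complex I accessory subunits (median -0.19), 13 of 16 ATP synthase subunits (median -0.18) and all 3 measured complex II subunits (median -0.23). Only UQCRB among them passed the test. The complex IV pattern rested on 1 DMSO array, since without DMSO replicate 1 the complex IV differences were above 0 for 5 subunits and below 0 for 5 (median 0.01), with 5 above 0 and 5 below also within passage 7 and within passage 8. Without that array the accessory subunits of complex I were above 0 for 10 and below 0 for 18, and the ATP synthase subunits above 0 for 7 and below 0 for 9. The complex III pattern was of like size without it, with 6 of 7 subunits above 0 (median 0.19). It was not particular to quercetin. Without DMSO replicate 1, 6 of the 7 subunits were above 0 with myricetin (median 0.17) and all 7 with punicalagin (median 0.07). CYC1, a complex III subunit outside the symbols used, is not in these counts, and its quercetin difference with all arrays was -0.03. UQCRC1, a core protein of complex III, followed UQCRB with a fitted difference of 0.45 and no overlap of the quercetin and DMSO arrays, and 0.19 without DMSO replicate 3.

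**Figure D1:**
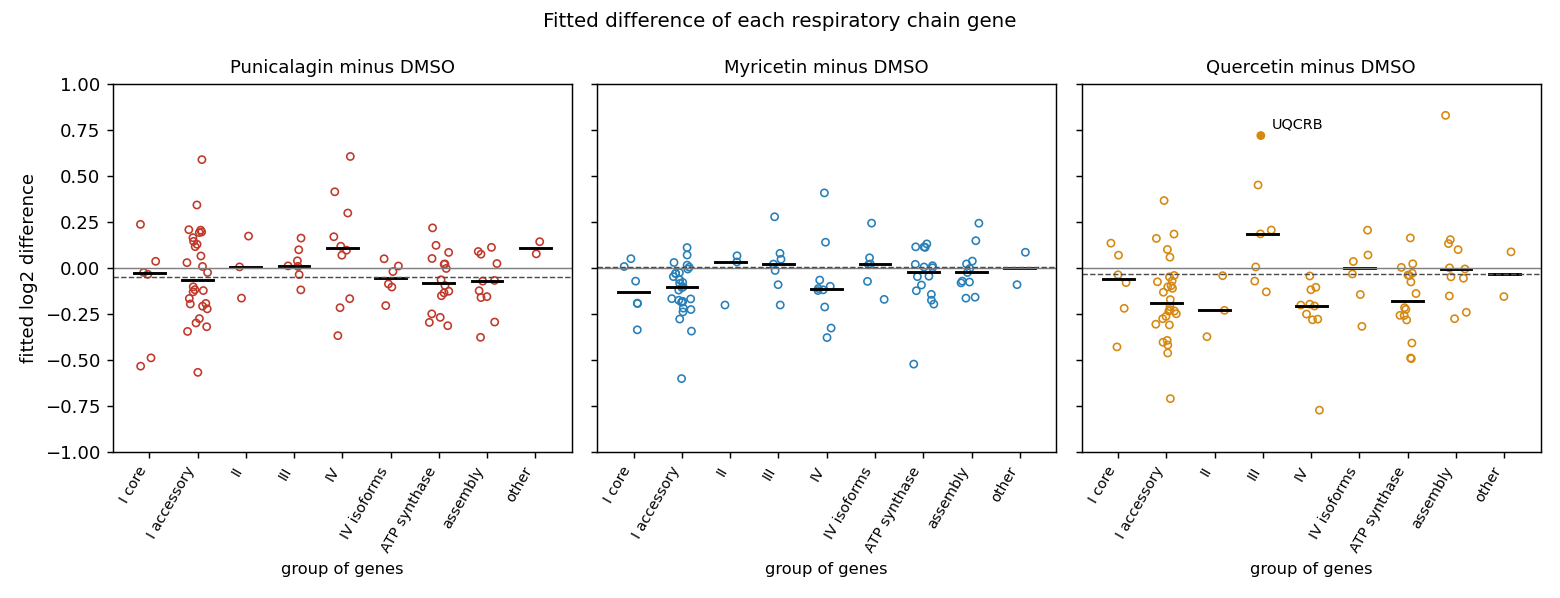
Fitted log2 difference (vertical axis) of each of the 89 genes, compound minus DMSO, by complex (horizontal axis), for punicalagin, myricetin and quercetin. Each point is a gene, filled where the adjusted p was under 0.05, thick bars are medians and the dashed line is the median of all rows tested. UQCRB with quercetin (0.72) is the only filled point.

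NDUFAF4, a factor needed to assemble complex I, had the largest difference of the group with quercetin. Its log2 values were 6.92 and 6.91 in quercetin-treated cells, against 6.82, 5.49 and 5.96 in DMSO cells. The quercetin arrays lay above all DMSO arrays, but DMSO replicate 1 lay close to them and far above the other DMSO arrays. The fitted difference was 0.83 (95% interval 0.18 to 1.48; limma adjusted p = 0.188), while without DMSO replicate 1 it was 1.19 (adjusted p = 0.00239) and without DMSO replicate 2 it was 0.53. Punicalagin-treated cells had 5.96, 6.15 and 5.78, and myricetin-treated cells 6.45 and 6.21, so that quercetin had the highest NDUFAF4 values of the 4 treatments.

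COX8A and NDUFA2 showed the opposite order with quercetin. COX8A, a small transmembrane subunit of complex IV, had 7.73 and 7.88 in quercetin-treated cells, against 9.31, 8.48 and 7.95 in DMSO cells (difference -0.77, limma adjusted p = 0.308). NDUFA2, an accessory subunit of complex I, had 5.51 and 5.35 with quercetin, against 6.74, 5.88 and 5.81 with DMSO (difference -0.71, limma adjusted p = 0.303). The groups did not overlap for either gene, and in both the DMSO values were spread widely, with DMSO replicate 1 the highest of the 10 arrays. Without that array the differences were -0.41 for COX8A and -0.41 for NDUFA2. ATP5MF and ATP5MG, membrane-part subunits of ATP synthase, both had a difference of -0.49 (limma adjusted p = 0.298 and 0.218), and that of ATP5MF was -0.30 without DMSO replicate 1.

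Punicalagin called none of the 89 genes against DMSO by limma, where 2.33% of all rows were called. Unadjusted p was under 0.05 for 1 gene higher and 2 lower, against 7.34% and 4.94% of all rows, and the punicalagin and DMSO arrays did not overlap for 1 gene higher and 4 lower, against 8.39% and 9.15%. All these shares were below those of the table. The median difference was -0.02, against -0.05 over all rows, with 43 genes above 0 and 46 below (8395 and 12818 of the 21214 rows tested). Without DMSO replicate 1 the median of the 89 genes was 0.06, with 56 above 0 and 33 below. The differences ran from -0.57 (NDUFA2) to 0.60 (COX5B), and that of NDUFA2 was -0.27 without DMSO replicate 1 and -0.87 without punicalagin replicate 2. For 83 of the 89 genes, and 19252 of the 21214 rows tested, the 95% interval of the difference lay within a 2-fold change in either direction.

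NDUFV1, the flavoprotein subunit of complex I that binds NADH and FMN, came nearest to the threshold with punicalagin. It had 7.02, 7.24 and 7.44 in punicalagin-treated cells, against 7.50, 7.93 and 7.87 in DMSO cells. All 3 punicalagin arrays lay below all 3 DMSO arrays, with a difference of -0.53 (95% interval -0.93 to -0.14; limma adjusted p = 0.216) and within-passage differences of -0.48, -0.69 and -0.43. NDUFV1 was also at 7.44 and 7.42 with myricetin (difference from DMSO -0.34, limma adjusted p = 0.631) and at 7.29 and 7.39 with quercetin (difference -0.43, limma adjusted p = 0.245). These 3 differences share their DMSO arrays. In a fit of the 8 arrays of passages 7 and 8, NDUFV1 passed for punicalagin (-0.56, limma adjusted p = 0.0467) and for quercetin (-0.56, limma adjusted p = 0.0315). NDUFV1-DT, the transcript that starts divergently from the NDUFV1 promoter, had 3.55, 3.41 and 3.40 with punicalagin, against 3.42, 3.29 and 3.24 with DMSO (difference 0.14, limma adjusted p = 0.769).

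COX5B and COX7B, nuclear-encoded subunits of complex IV, had higher means with punicalagin. COX5B had 7.16, 7.29 and 6.71 in punicalagin-treated cells, against 6.85, 6.29 and 6.21 in DMSO cells, and only the lowest punicalagin array and the highest DMSO array overlapped (difference 0.60, 95% interval 0.11 to 1.10; limma adjusted p = 0.276). Its within-passage differences were 0.31, 1.00 and 0.50. COX5B was also higher with myricetin, at 6.92 and 6.79 (difference from DMSO 0.41), with within-passage differences of 0.63 and 0.58. With quercetin it was at 6.35 and 6.33, within the DMSO range. COX7B had 5.09, 5.60 and 4.96 with punicalagin, against 4.88, 4.68 and 4.86 with DMSO, without overlap (difference 0.41, limma adjusted p = 0.426; 0.22 without punicalagin replicate 2). NDUFB8, a membrane-arm accessory subunit of complex I, had 6.51, 6.60 and 6.73 with punicalagin, against 6.93, 6.88 and 7.06 with DMSO, again without overlap (difference -0.35, limma adjusted p = 0.339). When limma weighted the arrays by their quality, giving DMSO replicate 1 a weight of 0.362 in this fit, COX5B (0.73, adjusted p = 0.0490) and NDUFV1 (-0.67, adjusted p = 0.0399) passed.

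**Figure D2:**
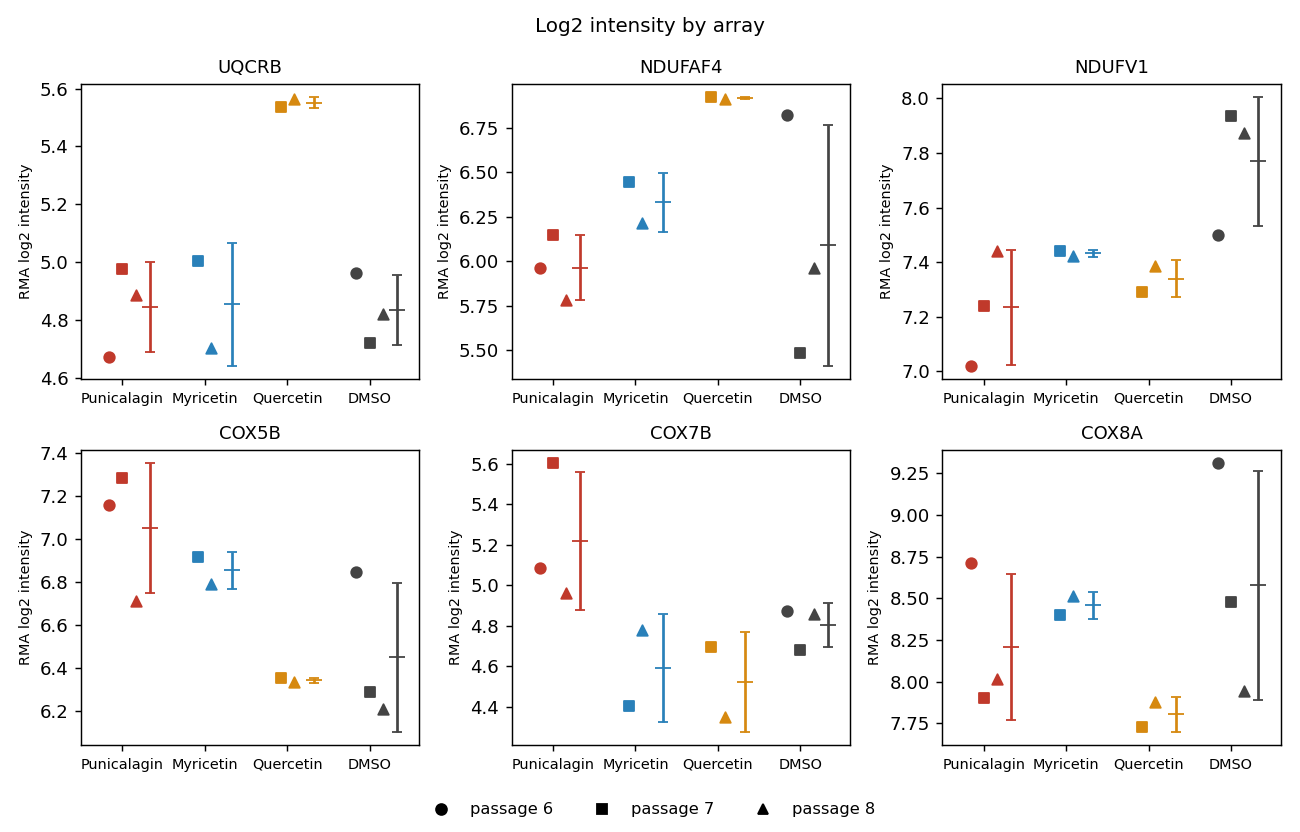
RMA log2 intensity (vertical axis, own range for each gene) of UQCRB, NDUFAF4, NDUFV1, COX5B, COX7B and COX8A by treatment (horizontal axis). Each point is an array, its shape gives the passage, and bars are the mean ± SD. The UQCRB values with quercetin (5.54 and 5.57) stand above all others, and the NDUFAF4 and COX8A values of DMSO cells are spread widely.

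Myricetin called none of the 89 genes by limma, where 0.509% of all rows were called. Unadjusted p was under 0.05 for 0 genes higher and 0 lower, against 5.12% and 3.5% of all rows, and arrays did not overlap for 2 genes higher and 7 lower, against 13.3% and 10.4%. The median difference was -0.07, against 0.00 over all rows, with 31 genes above 0 and 58 below (10719 and 10495 of the 21214 rows tested). Without DMSO replicate 1 the median of the 89 genes was 0.06, with 58 above 0 and 31 below. The largest differences without overlap were those of NDUFA2 (5.53 and 5.55 with myricetin, against 6.74, 5.88 and 5.81 with DMSO; difference -0.60, limma adjusted p = 0.638) and of ATP5MK, a small membrane subunit of ATP synthase (6.57 and 6.49 with myricetin, against 6.97, 6.94 and 7.26 with DMSO; difference -0.52, limma adjusted p = 0.600). Without DMSO replicate 1 the NDUFA2 difference was -0.30. The second row of ATP5MK gave 0.11, so the direction of this gene depended on the row. The 95% interval lay within a 2-fold change for 87 of the 89 genes and for 19941 of the 21214 rows tested.

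The compounds were also set against each other. Punicalagin and quercetin differed in UQCRB, which was lower with punicalagin by 0.71 on the log2 scale (difference -0.71, 95% interval -1.04 to -0.38; limma adjusted p = 0.0249). It was the only one of the 89 genes called, where 3.91% of all rows were called and 1.85% called lower. The call was lost without punicalagin replicate 1 (-0.62, adjusted p = 0.0886), quercetin replicate 1 (-0.72, adjusted p = 0.236) or quercetin replicate 2 (-0.69, adjusted p = 0.189), where a lone quercetin array was again assumed to vary like the other groups, and when all rows were tested (adjusted p = 0.0590). Unadjusted p was under 0.05 for 7 genes higher with punicalagin and 4 lower, against 7.92% and 8.12% of all rows. NDUFAF4 differed by -0.95 (limma adjusted p = 0.114), COX5B by 0.71 (0.101) and COX7B by 0.70 (0.0962), each without overlap. The fit with passage as a block called 3 genes, all lower with punicalagin: UQCRB (adjusted p = 0.0440), NDUFAF4 (-1.13, adjusted p = 0.0456) and NDUFS8, an iron-sulfur core subunit of complex I (-0.86, adjusted p = 0.0381). In the main fit NDUFS8 differed by -0.62 and was not called. Without punicalagin replicate 3, and with no block, its difference was -0.41.

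Myricetin and quercetin are flavonols that differ by an additional hydroxyl group on the B ring of myricetin. By limma none of the 89 genes passed between them, where 1.7% of all rows were called, and unadjusted p was under 0.05 for 3 genes higher with myricetin and 1 lower, against 6.46% and 6.46% of all rows. UQCRB came nearest, at 5.00 and 4.70 with myricetin, against 5.54 and 5.57 with quercetin (difference -0.70, 95% interval -1.06 to -0.34; limma adjusted p = 0.0606). Without DMSO replicate 1, which enters this fit through the shared spread, its adjusted p was 0.0277. ATP5MF had 7.56 and 7.70 with myricetin, against 7.10 and 6.95 with quercetin (difference 0.60, limma adjusted p = 0.267), and COX8A had 8.40 and 8.51, against 7.73 and 7.88 (0.65, limma adjusted p = 0.519). For 80 of the 89 genes, and 18684 of the 21214 rows tested, the 95% interval lay within a 2-fold change.

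Between punicalagin and myricetin limma called none of the 89 genes, where 0.528% of all rows were called. Unadjusted p was under 0.05 for 2 genes higher with punicalagin and 0 lower, against 5.82% and 3.1% of all rows. They were COX7B (5.09, 5.60 and 4.96 with punicalagin, against 4.40 and 4.78 with myricetin; difference 0.63, limma adjusted p = 0.286) and NDUFB9, an accessory subunit of complex I (8.41, 8.89 and 7.85 with punicalagin, against 7.54 and 7.61 with myricetin; difference 0.81, limma adjusted p = 0.355). The groups overlapped for neither gene. NDUFS4, another accessory subunit of complex I, had 4.17, 3.79 and 4.64 with punicalagin, against 3.65 and 3.65 with myricetin (difference 0.55, limma adjusted p = 0.581). This difference was 0.33 without punicalagin replicate 3 and 0.29 on the second NDUFS4 row.

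By limma none of the 3 measured subunits of complex II passed in any of the 6 comparisons, with an unadjusted p under 0.05 for SDHD with quercetin against DMSO and for SDHC with punicalagin against quercetin. SDHA, the flavoprotein that oxidises succinate, had 7.74, 7.97 and 7.95 with punicalagin, 7.94 and 7.89 with myricetin, 7.82 and 7.86 with quercetin, and 7.67, 8.06 and 7.92 with DMSO, all groups overlapping the DMSO range. SDHC, a membrane anchor, had 8.34, 8.62 and 8.06 with punicalagin, 8.19 and 8.27 with myricetin, 7.91 and 7.96 with quercetin, and 8.36, 8.21 and 7.94 with DMSO. SDHD, the other anchor, had 9.26, 9.02 and 9.12 with punicalagin, 9.12 and 9.07 with myricetin, 8.90 and 8.95 with quercetin, and 9.34, 9.28 and 9.27 with DMSO. All 7 treated arrays lay below the 3 DMSO arrays for SDHD, with differences of -0.17 for punicalagin, -0.20 for myricetin and -0.37 for quercetin (limma adjusted p = 0.724, 0.768 and 0.158). The second SDHD row gave -0.39, 0.05 and -0.34. Against DMSO the second SDHC row gave 0.32 with punicalagin and 0.33 with quercetin, where the row used gave 0.17 and -0.23. The direction of SDHD with myricetin and of SDHC with quercetin thus depended on the row. The SDHC difference between punicalagin and quercetin also rested on the row used, since the second row put both nearly equally above DMSO.

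The tissue-restricted isoforms of complex IV, which stand in for the common isoforms in tissues such as muscle, lung or testis, passed no test by limma in any of the 6 comparisons, and 0 of these 6 genes had an unadjusted p under 0.05, against 3.1% to 8.12% of all rows in each direction. COX4I2, the isoform known from lung and hypoxic cells, ranged from 4.87 to 5.10 over the 10 arrays, and its common counterpart COX4I1 from 7.40 to 7.81. COX6A2, of heart and skeletal muscle, had 6.35, 6.04 and 6.27 with punicalagin, against 6.59, 6.57 and 6.12 with DMSO (difference -0.21, limma adjusted p = 0.733), and its counterpart COX6A1 had 9.61, 9.88 and 9.27 with punicalagin, against 9.96, 9.14 and 9.17 with DMSO (0.17, limma adjusted p = 0.864). Without single arrays of these groups the COX6A2 difference lay between -0.36 and -0.12 and that of COX6A1 between 0.02 and 0.44. COX7A1, also of muscle, had 4.15 and 4.34 with quercetin, against 4.76, 4.40 and 4.52 with DMSO, without overlap (difference -0.32, limma adjusted p = 0.516). COX6B2 and COX7B2, known from testis, ranged from 2.83 to 3.23 and from 2.29 to 2.74. Levels of different genes come from different probes and are not compared.

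In the remaining complexes the genes whose rows had the highest or lowest means passed no test, apart from UQCRB. ATP5F1B, the catalytic beta subunit of ATP synthase, had 9.27, 9.65 and 9.13 with punicalagin, 9.83 and 9.38 with myricetin, 9.59 and 9.71 with quercetin, and 9.75, 9.40 and 9.32 with DMSO, with all groups overlapping DMSO. UQCRC2, a core protein of complex III, had 9.18 and 9.30 with myricetin, against 8.98, 8.78 and 9.12 with DMSO (difference 0.28, limma adjusted p = 0.708), and the punicalagin and quercetin means lay between the myricetin and DMSO means. NDUFS7 and NDUFV2, core subunits of complex I, differed from DMSO by between -0.19 and 0.07 with all 3 compounds. NDUFA3 had 8.76 and 8.64 with quercetin, against 9.66, 8.78 and 9.04 with DMSO (difference -0.46, limma adjusted p = 0.534; -0.21 without DMSO replicate 1).

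The respiratory chain genes also shifted together on single arrays. DMSO replicate 1 (passage 6) was above the mean of the other DMSO arrays for 72 of the 89 genes (80.9%), against 55.6% of all rows, with a median of 0.36 against 0.05. It was the highest of the 10 arrays for 39 of the genes (43.8%, against 21.1% of all rows). Punicalagin replicate 2 (passage 7) was above the other punicalagin arrays for 71 of the 89 (79.8%, against 49.8% of all rows), with a median of 0.25, and was the highest array for 24 (27%, against 13.2%). Punicalagin replicate 3 (passage 8) was the lowest of the 10 arrays for 23 genes (25.8%, against 11.9%). These arrays were singled out after their values were seen.

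The shift of DMSO replicate 1 was present in most groups of genes. It was above the other DMSO arrays for 9 of 10 complex IV subunits (median 0.57), 15 of 16 ATP synthase subunits (0.40), all 7 complex III subunits (0.49) and 22 of 28 complex I accessory subunits (0.47), but for 3 of 6 complex I core subunits (0.02). The largest were COX6B1 (1.12), COX8A (1.10) and NDUFAF4 (1.10), and the most negative was NDUFA10 (-0.78). Relative to each gene's mean over the 10 arrays, DMSO replicate 1 also had medians of 0.26 for mitochondrial ribosomal proteins and 0.27 for mitochondrial import proteins. The other mitochondrial lists described below had lower medians on this array. They were 0.14 for the list with cytochrome c, 0.11 for TCA cycle enzymes, 0.07 for regulators and -0.01 for other assembly factors, against 0.04 over all rows tested. Nothing in the labels sets this array apart beyond its passage, which it shares with punicalagin replicate 1, whose median was -0.01 over the 89 genes. The part of array quality in these shifts was not tested.

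**Figure D3:**
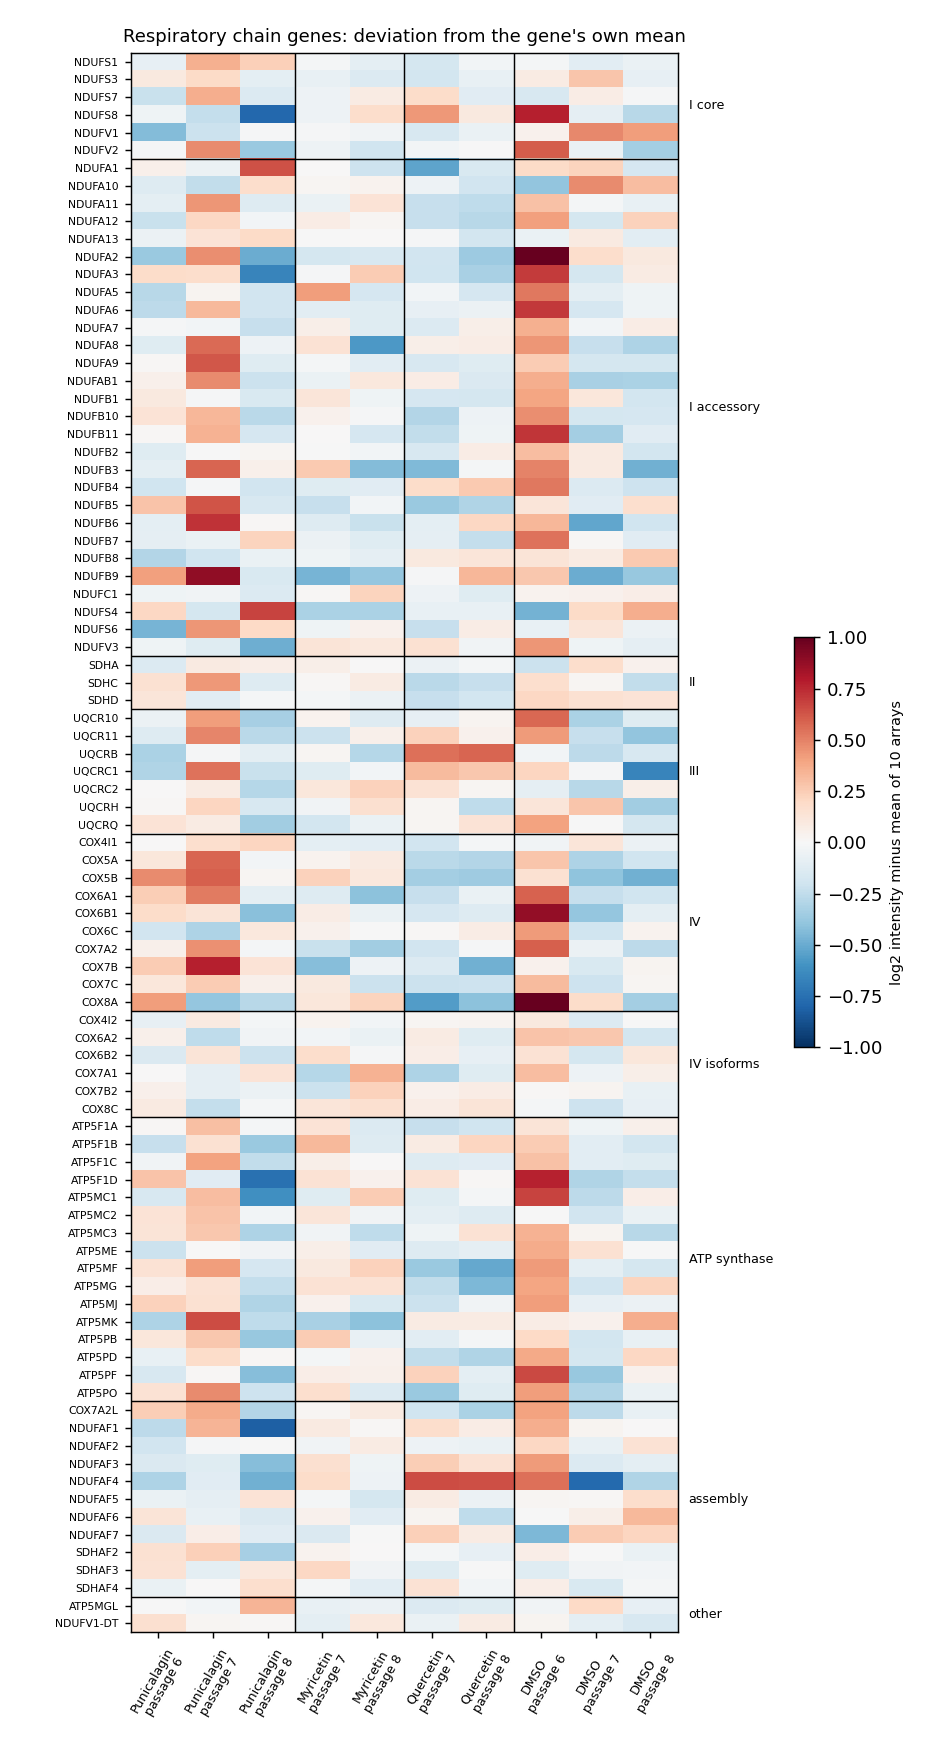
Deviation of each of the 89 genes (rows, grouped by complex) from its own mean over the 10 arrays, in log2 units, for each array (columns, by treatment and passage). Red is above and blue below the gene's mean, with colours saturating at 1. The columns of DMSO passage 6 and punicalagin passage 7 are mostly red, and UQCRB and NDUFAF4 are red with quercetin.

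Set against the DMSO array of its own passage, punicalagin gave medians that differed in sign between passages. The median of the 89 differences was -0.29 in passage 6 (20 genes higher, 69 lower), 0.29 in passage 7 (61 higher, 28 lower) and -0.03 in passage 8 (40 higher, 49 lower), while the medians over all rows were -0.06, -0.04 and -0.04. Only 7 of the 89 genes were higher in all 3 passages and 9 lower, against 14.4% and 21.5% of all rows. Myricetin gave medians of 0.06 and 0.01 in passages 7 and 8, and quercetin 0.00 in both. The median SD of the 89 genes was 0.28 among DMSO arrays and 0.24 among punicalagin arrays, against 0.087 among myricetin and 0.083 among quercetin arrays, which cover 2 passages each. The median SDs over all rows were 0.19, 0.18, 0.099 and 0.084 in the same order, so that these genes had a higher median SD than the table among DMSO and punicalagin arrays.

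**Figure D4:**
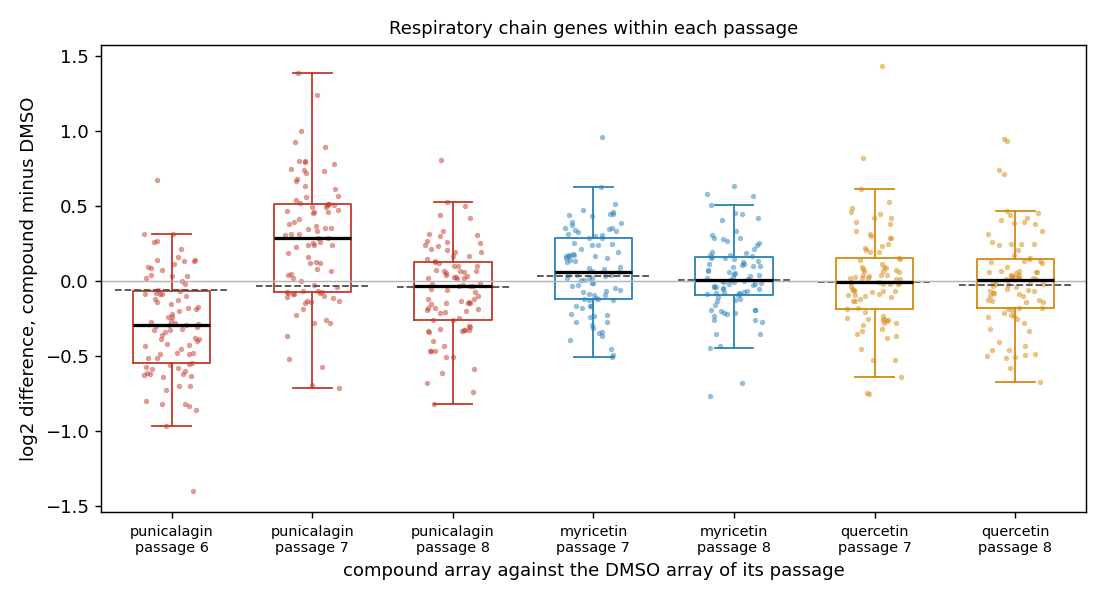
Log2 difference of each of the 89 genes (points) between a compound array and the DMSO array of the same passage (vertical axis), by compound and passage (horizontal axis). Boxes give the quartiles and median, whiskers reach 1.5 interquartile ranges at most, and dashed lines are medians of all rows. The punicalagin medians are -0.29, 0.29 and -0.03 in passages 6, 7 and 8.

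Genes that work beside the respiratory chain gave no call. The lists were cytochrome c, CYC1 of complex III and complex V proteins outside the symbols above (4 measured), other assembly factors (28), transcriptional regulators of respiratory genes (17), TCA cycle enzymes (15), mitochondrial import proteins (22) and mitochondrial ribosomal proteins (73). By limma 0 of these 159 genes were called in any of the 6 comparisons, and unadjusted p was under 0.05 for 2 higher and 5 lower with punicalagin (7.34% and 4.94% of all rows), 0 and 2 with myricetin (5.12% and 3.5% of all rows), and 6 and 5 with quercetin (7.95% and 6.86% of all rows), each against DMSO. CYCS, cytochrome c itself, averaged 7.64 with quercetin and 7.04 with DMSO (difference 0.61, limma adjusted p = 0.327). NUBPL, which delivers iron-sulfur clusters to complex I, averaged 4.10 with quercetin and 4.68 with DMSO (difference -0.58, limma adjusted p = 0.0966). It was also lower with myricetin (-0.61, limma adjusted p = 0.212) and with punicalagin (-0.39, limma adjusted p = 0.269), against the same DMSO arrays. MRPS18A, a mitochondrial ribosomal protein, averaged 6.75 with quercetin and 7.35 with DMSO (difference -0.60, limma adjusted p = 0.0784). TOMM20, an import receptor of the outer membrane, averaged 6.72 with quercetin and 6.22 with DMSO (difference 0.51, limma adjusted p = 0.367). Its mean was 6.71 with punicalagin (difference from DMSO 0.49, limma adjusted p = 0.375) and 6.37 with myricetin. IDH3G, a subunit of the TCA cycle isocitrate dehydrogenase, averaged 9.41 with punicalagin and 10.02 with DMSO (difference -0.60, limma adjusted p = 0.242). GABPB1, a subunit of the ETS-type factor GABP, averaged 6.25 with myricetin and 6.75 with DMSO (difference -0.50, limma adjusted p = 0.369).

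The macrophage markers CD68, CSF1R, CTSD, ITGAM, TYROBP, LYZ and SPI1 ranged from 8.31 to 12.04 on the log2 scale over the 10 arrays, and CD14 from 5.74 to 8.88. The mean of these 8 markers lay between 9.78 and 10.64 over the punicalagin arrays, 9.65 and 9.84 over the myricetin arrays, 9.96 and 10.10 over the quercetin arrays, and 9.47 and 9.92 over the DMSO arrays. Against DMSO, unadjusted p was under 0.05 for 5 of the 8 higher and 1 lower with punicalagin, where 7.34% and 4.94% of all rows were (median difference 0.72). With myricetin there were 0 higher and 1 lower (5.12% and 3.5% of all rows, median 0.16). With quercetin there were 2 higher and 1 lower (7.95% and 6.86% of all rows, median 0.36). The lower marker was SPI1 with punicalagin (-0.47), LYZ with myricetin (-1.05, limma adjusted p = 0.282) and SPI1 with quercetin (-0.53, limma adjusted p = 0.117). CD68 alone passed against DMSO by limma, averaging 11.31 with quercetin and 10.18 with DMSO (difference 1.13, adjusted p = 0.0103). Its mean was 11.17 with punicalagin (difference from DMSO 0.99, limma adjusted p = 0.0513) and 10.35 with myricetin. With punicalagin CD14 averaged 7.62, with uneven arrays (7.68, 8.88 and 6.30), against 5.89 with DMSO (difference 1.73, limma adjusted p = 0.161). Markers of other cell types (CD3E, EPCAM, HBB and ALB) were at most 3.92 on every array, and COL1A1 was between 5.75 and 5.99. The part of these markers in the respiratory chain differences was not tested.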

How the data were processed

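Total RNA of 10 THP-1 macrophage cultures was measured on 1-colour arrays. The deposited values are log2 intensities, which the authors made with RMA in Affymetrix Expression Console (background correction, quantile normalisation and log transformation of a group of files at once); Partek 7.0 is also named. The methods describe the punicalagin and DMSO arrays, and whether all 10 arrays were in 1 RMA run, and the genome build, are not given in the sources used here. Array files from before normalisation were not used here.

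Rows were named from the platform annotation (19460 with 1 symbol, 1754 with several, 12083 with none). Differences were fitted with limma 3.58.1 in R 4.3.3 (lmFit, eBayes), for punicalagin against DMSO on their 6 arrays and for the other 5 comparisons on all 10, and p-values were adjusted by Benjamini-Hochberg over 21214 rows. A gene was called at an adjusted p under 0.05, two-sided. The code was tested on simulated data. Genes named in the text were those called, at most 10; the 3 largest without overlap where fewer were called; the rows with the highest and lowest mean of each complex; isoform pairs; complex II; and the largest of each other list. UQCRC1, NDUFS8, ATP5MG and the largest array shifts were added after their values were seen, as were differences without single arrays for the genes named. Members and lists were chosen with earlier results of these data known. The arrays' number limits the precision: the median standard error of the 89 genes was 0.19 for punicalagin and 0.20 for the flavonols against DMSO.

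Replicate numbers in the labels mark passages. Deviations from the group means correlated at 0.36, -0.10 and 0.32 between punicalagin and DMSO arrays of the same passage over all rows tested. Between punicalagin and DMSO arrays of different passages the correlations ran from -0.44 to 0.33. Passage was not a block in the main fit, since the study's methods name no block, and the block was run as an alternative. Alternatives were passage as a block, the 8 arrays of passages 7 and 8, another spread estimate, array weights, all rows, a filter on dim rows, centring, the other row of a gene, subunits only, a per-gene analysis of variance between each pair of groups with the 2-fold criterion of the study's methods, with and without adjustment, and leaving out each array.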

Additional observations from a re-analysis of the deposited data

How the results depend on the processing

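The number of called genes among the 89 was 0 for myricetin against DMSO and for punicalagin against myricetin under all alternatives run. For punicalagin against DMSO it was 0, except 1 with the 8 arrays of passages 7 and 8 and 2 with array weights. For quercetin against DMSO it was 1, but 3 with the 8 arrays, 4 with array weights, and 0 when all rows were tested, when dim rows were left out (UQCRB is among the dim rows) and by the per-gene analysis of variance with the 2-fold criterion, unadjusted and adjusted; leaving out single arrays gave 0 to 3. For punicalagin against quercetin it was 1, but 3 with passage as a replicate block, 2 with the 8 arrays, 6 with array weights, and 0 for all rows, without dim rows and by both forms of that analysis; leaving out single arrays gave 0 to 3. For myricetin against quercetin it was 0, but 1 with the 8 arrays, 4 with array weights and 0 to 1 without single arrays. With all arrays and no block, no difference of the 89 genes reached 2-fold in any comparison (the largest was -0.95), so the fold criterion alone gives 0 there. Some alternatives passed 2-fold. NDUFAF4 differed by 1.19 for quercetin against DMSO without DMSO replicate 1, and by -1.13 for punicalagin against quercetin with passage as a block. The block changed no other call count. For these comparisons array weights and the 8 arrays also called more rows of the whole table. Of 21214 rows, array weights called 734 higher and 217 lower for punicalagin against DMSO. They called 1375 and 1164 for quercetin against DMSO, 1177 and 1271 for punicalagin against quercetin, and 1240 and 1320 for myricetin against quercetin. The 8 arrays called 666 and 230, 844 and 763, 636 and 494, and 513 and 564 in the same order. NDUFAF4 was called with quercetin against DMSO without DMSO replicate 1, the array that array weights set lowest (0.247 in the fit of 10). ATP5MK with myricetin reversed to 0.11 with its other row. In every alternative the median differences of the 89 genes moved by less than 0.133, the pooled within-group SD of the array medians. That SD describes single arrays, not a difference between group means. Against DMSO the medians lay between -0.11 and 0.08 for punicalagin, -0.12 and 0.06 for myricetin and -0.16 and -0.03 for quercetin. The sign of the median thus depended on the alternative for punicalagin and for myricetin. Causes of these changes were not tested. With 2 or 3 arrays a group, small differences were not detectable.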
